A study of Mus musculus with 2 samples.

Results

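The red cell membrane and its skeleton were followed through 8 genes: Slc4a1, Epb41, Epb42, Sptb, Ank1, Rhag, Ermap and Aqp1. They were taken by symbol and make up 8 of the 26124 genes counted. The counts came from 2 droplet libraries of single spleen cells that had bound to F4/80 beads after lysis of red cells, each library from 1 mouse of 12 to 16 weeks. The wild-type-labelled library came from a control that was homozygous for Hbatm1Paz, heterozygous for Hbbtm1Tow and hemizygous for the transgene Tg(HBA-HBBs)41Paz. The SCD-labelled library came from a Berkeley mouse, a model of sickle cell disease, that was homozygous for all 3 alleles. As labelled, both mice thus carried the α-globin deletion and the human globin transgene, and the control was not free of either. These genotypes are those of the labels, and the mouse globin counts given below go against them.

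A red cell keeps the membrane proteins it made as an erythroblast, because it later loses its nucleus. Band 3, the anion exchanger encoded by Slc4a1, is tied by ankyrin (Ank1) and protein 4.2 (Epb42) to β-spectrin (Sptb), and protein 4.1 (Epb41) joins spectrin to actin. Rhag carries the Rh complex in the membrane, Aqp1 is the water channel, and Ermap is an erythroid membrane protein of the immunoglobulin type. Red pulp macrophages of the spleen take up old red cells, and macrophages of erythroblastic islands hold developing erythroblasts on their surface.

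After filtering, 19418 cells of the wild-type-labelled library and 12279 of the SCD-labelled library were kept, with medians of 4116 and 4571 unique molecules (UMIs) per cell, and 65 cell barcodes occurred in both libraries. The mouse β-globin gene Hbb-bs went against the labels of both libraries, at 132 counts per 1000000 UMIs (CPM) in erythroid-like cells of the wild-type-labelled library and 59476 CPM in those of the SCD-labelled library, whose mouse should lack it. Hbb-bt behaved alike (223 and 18170 CPM), and the α-globin gene Hba-a1, deleted in both mice by the labels, was counted at 24828 and 31009 CPM. The libraries are therefore named by their labels only, and no direction between them is read as an effect of genotype. A level is given in CPM, from a gene's UMIs added up over all cells of one group in one library and divided by the total of those cells. With 1 mouse per condition no test was possible, and the intervals given are 95% exact Poisson intervals, or exact conditional intervals for ratios, which cover counting error only.

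Of 25 clusters, made without the 8 genes, 4 were erythroid-like, with all 9 erythroid markers detected in each library. Of these, 2 were called cycling (2911 and 235 cells in the wild-type- and SCD-labelled libraries) and were led by Car1 and Hemgn. The other 2, led by Xpo7 and Oas1e, were called late (2082 and 181 cells). The summed level of 23 cell cycle genes was 11730 and 15452 CPM in cycling cells against 1181 and 881 CPM in late cells, and that of 13 late erythroid genes was 8351 and 8427 against 26941 and 34477 CPM. Red pulp macrophage markers without erythroid ones marked 3 clusters (RPM-like, 4826 and 1641 cells), and both together marked 3 more (EBI-like, for erythroblastic island, 2643 and 649 cells). The largest B lymphocyte-like cluster (796 and 1857 cells), which should not make these 8 genes in erythroid amounts, served as the reference for free RNA. This use is less certain for Epb41, whose ratio to Slc4a1 there is given below.

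From cycling to late erythroid cells the 8 genes fell into 3 groups by the limit of 2-fold, which were the same in both libraries. Epb41 was higher in late cells of the wild-type- and SCD-labelled libraries, by log2 ratios of 1.81 (1.78 to 1.83) and 2.25 (2.15 to 2.35). Aqp1 was 6.98-fold and 5.06-fold lower, and Sptb 2.48-fold and 2.66-fold lower. The other 5, Slc4a1, Epb42, Ank1, Rhag and Ermap, differed by less than 2-fold in each library. They did not share a direction, with Epb42 higher and Ank1 lower in late cells. With 2-fold as the limit, 1 of 8 was higher and 2 of 8 were lower in each library, beside 3.61% higher and 22.0% lower among the 10284 genes with at least 100 UMIs in the wild-type-labelled library and 8.53% and 41.4% of 3941 genes in the SCD-labelled library. All 8 genes passed this minimum. Their median log2 ratio was -0.27 and -0.10, and that of all genes with enough UMIs -0.24 and -0.72.

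**Figure D1:**
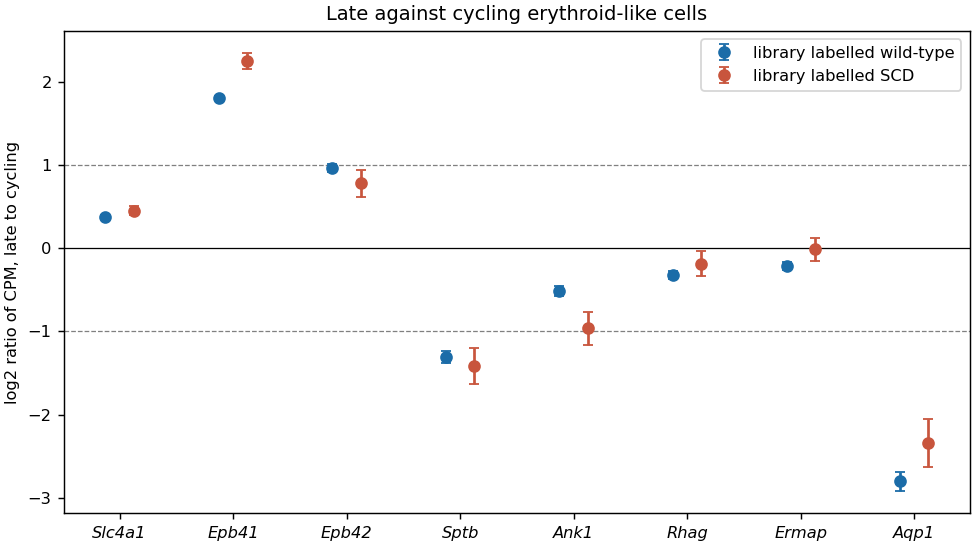
The log2 ratio of CPM of late to cycling erythroid-like cells for each of the 8 genes, with 95% counting intervals, in the wild-type-labelled library (blue) and the SCD-labelled library (red); dashed lines mark 2-fold. Epb41 lies above the upper line and Sptb and Aqp1 below the lower line in both libraries.

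Other quantities moved with this comparison. Late cells held fewer UMIs (medians of 2473 and 2718, against 7670 and 6878 in cycling cells) and more hemoglobin RNA (34781 and 190351 CPM, against 22813 and 83345). CPM is a share of the total, so a higher CPM need not be more UMIs per cell. In the wild-type-labelled library Epb42 had 8996 UMIs in 2911 cycling cells and 5633 in 2082 late cells. Epb41 had 20077 and 22452 UMIs in the same cells. The summed level of 10 red pulp macrophage markers was 13751 and 7586 CPM in late cells and 8216 and 3823 CPM in cycling cells, with none of the 10 at 0, while the B lymphocyte-like reference held 9545 and 3616 CPM. Of the Hemgn-led cycling cluster, 44.5% of cells were marked as doublets, against 3.56% of the Car1-led one. With the Car1-led cluster alone as cycling cells, an alternative chosen after seeing the data, 1 gene was higher and 2 were lower in the wild-type-labelled library. In the SCD-labelled library 1 was higher and 3 were lower, with Ank1 as the third (log2 ratio -1.17). The share over all genes was not computed for the alternatives, so their counts have no background beside them and are not read as results about the members. The part of the macrophage RNA in the result was not tested. Depth was varied by thinning each cell to the same number of UMIs. Then 2 members instead of 1 were past 2-fold higher in late cells of each library.

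The RNA of band 3, the most abundant protein of the red cell membrane, changed less in CPM between the 2 groups than Epb41 and Sptb did. Slc4a1 (ENSMUSG00000006574, chr11:102348824-102366203, minus strand of GRCm38) was at 3583 CPM (3560 to 3607) in cycling and 4665 CPM (4618 to 4712) in late cells of the wild-type-labelled library, and at 4033 (3944 to 4124) and 5521 (5339 to 5708) CPM in the SCD-labelled library. The ratio of late to cycling cells was 1.30 and 1.37. Over the alternatives the log2 of this ratio ran from 0.12 to 0.82 and from -0.06 to 0.63. Among cycling cells Slc4a1 was at 4298 and 4475 CPM in the Car1-led cluster and 2879 and 3162 CPM in the Hemgn-led one. To see where along the way it moved, cells were ordered by the late share among their late and cell cycle list UMIs and split into 5 bins of equal cell number, of 998 or 999 cells in the wild-type-labelled library and 83 in the SCD-labelled library. Other quantities moved along the bins. Marked doublets were most frequent in bin 3, at 25.6% and 44.6%, against 0.701% and 4.82% in bin 5, and the red pulp macrophage markers went from 4208 and 1944 CPM in bin 1 to 15469 and 9804 CPM in bin 4, and their part in the courses was not tested. In the wild-type-labelled library Slc4a1 went from 2876 CPM in bin 1 to 4235, 3957 and 3904 CPM in bins 2 to 4 and 5536 CPM in bin 5. In the SCD-labelled library the same bins held 2989, 4926, 4810, 4837 and 6235 CPM. Both libraries thus showed a step up from bin 1 to bin 2, a level stretch whose intervals overlapped in the SCD-labelled library, and a second step in bin 5.

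The RNA of protein 4.2, which binds band 3 from the inside, also rose as a share of UMIs. Epb42 (ENSMUSG00000023216, chr2:121017891-121037072, minus strand) was at 359 CPM (351 to 366) in cycling and 702 CPM (684 to 721) in late cells of the wild-type-labelled library. In the SCD-labelled library it was at 466 CPM (436 to 498) and 801 CPM (733 to 875). The ratios, 1.96 (1.89 to 2.03) and 1.72 (1.54 to 1.92), lay just under 2-fold, and in the wild-type-labelled library the interval reached past it. With marked doublets removed the log2 ratio in the wild-type-labelled library was 1.25, past 2-fold. Over the 5 bins Epb42 went from 250 (240 to 260) to 879 (845 to 913) CPM in the wild-type-labelled library and from 315 (278 to 355) to 802 (698 to 917) CPM in the SCD-labelled library. Each bin was above the one before, in unequal steps. Neighbouring intervals overlapped from bin 2 on in the SCD-labelled library. In the wild-type-labelled library those of bins 2 and 3 overlapped, at 427 (413 to 441) and 455 (440 to 471) CPM.

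The RNA of protein 4.1 had the steepest rise in CPM of the 8. Epb41 (ENSMUSG00000028906, chr4:131923413-132075321, minus strand) was at 800 CPM (789 to 812) in cycling and 2800 CPM (2763 to 2837) in late cells of the wild-type-labelled library. The SCD-labelled library held 722 CPM (684 to 761) and 3432 CPM (3289 to 3580). It grew in every bin, through 493, 878, 1240, 2234 and 3587 CPM in the wild-type-labelled library and through 445, 809, 1138, 2945 and 4294 CPM in the SCD-labelled library. No intervals of neighbouring bins overlapped, and bin 5 was 7.28-fold and 9.65-fold above bin 1.

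The RNA of β-spectrin and of ankyrin, the partners beneath band 3, went the other way in CPM. Sptb (ENSMUSG00000021061, chr12:76580488-76710547, minus strand) was at 594 CPM (585 to 604) in cycling and 240 CPM (229 to 251) in late cells of the wild-type-labelled library, and at 886 (845 to 929) and 333 (289 to 381) CPM in the SCD-labelled library. It peaked in bin 2, at 702 and 1092 CPM, and was lowest in bin 4, at 213 and 291 CPM. In the wild-type-labelled library the log2 ratio of late to cycling cells went from -1.31 to -0.80, inside 2-fold, when marked doublets were removed. The gene overlaps Plekhg3 on the opposite strand, and whether counting used strand is not given in the sources used here. Ank1 (ENSMUSG00000031543, chr8:22974844-23150497, plus strand) followed at a smaller size, with 531 (522 to 540) and 373 (360 to 386) CPM in cycling and late cells of the wild-type-labelled library and 783 (744 to 824) and 402 (353 to 454) CPM in those of the SCD-labelled library. It too was highest in bin 2 (608 and 929 CPM) and lowest in bin 4 (309 and 367 CPM). Ank1 recovered to 456 CPM (433 to 481) in bin 5 of the wild-type-labelled library, while in the SCD-labelled library the intervals of bins 4 and 5 overlapped.

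**Figure D2:**
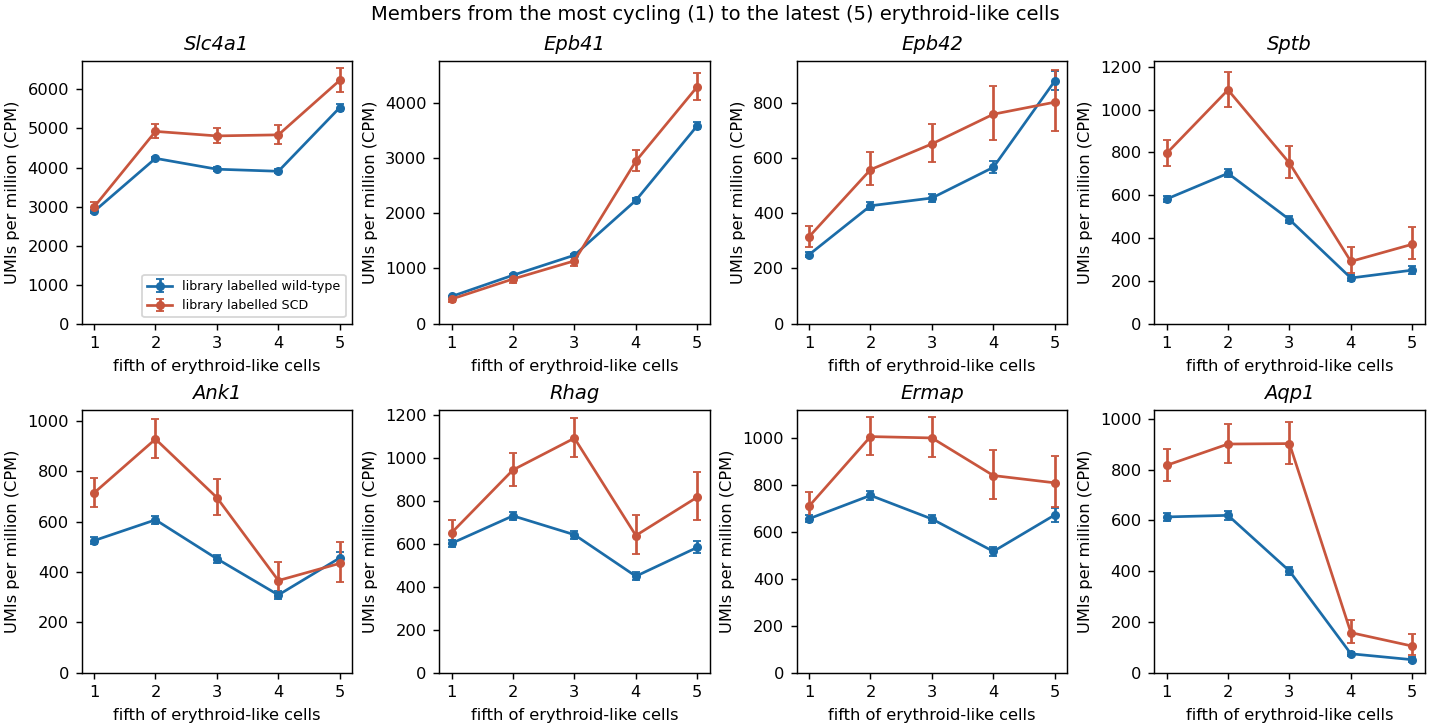
CPM of each gene (1 panel each, linear axis from 0) in 5 bins of erythroid-like cells, from the bin with the lowest late share (1) to the highest (5), with 95% Poisson intervals, in the wild-type-labelled library (blue) and the SCD-labelled library (red). Epb41 climbs in every bin, Epb42 from 250 to 879 and from 315 to 802 CPM, and Aqp1 falls between bins 3 and 4, from 401 to 74.7 and from 903 to 158 CPM.

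Rhag and Ermap stayed within 2-fold over all 5 bins. Rhag (ENSMUSG00000023926, chr17:40811126-40840754, plus strand) was at 651 CPM (641 to 661) in cycling and 520 CPM (504 to 536) in late cells of the wild-type-labelled library, and at 853 (812 to 895) and 750 (684 to 821) CPM in the SCD-labelled library. Ermap (ENSMUSG00000028644, chr4:119175457-119190011, minus strand) was at 685 (675 to 695) and 593 (576 to 610) CPM, and at 870 (829 to 912) and 862 (791 to 938) CPM. Their highest bins stood 1.63-fold and 1.71-fold above the lowest for Rhag, and 1.46-fold and 1.42-fold for Ermap. The 2 late clusters differed for Ermap, with 534 CPM in the Xpo7-led and 811 CPM in the Oas1e-led cluster of the wild-type-labelled library, and 832 and 1354 CPM in the SCD-labelled library, where the second holds 25 cells.

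Aqp1, the water channel, was the gene that nearly left the late cells. Aqp1 (ENSMUSG00000004655, chr6:55336432-55348555, plus strand) was at 555 CPM (546 to 565) in cycling and 79.6 CPM (73.5 to 86.0) in late cells of the wild-type-labelled library, and at 870 (829 to 913) and 172 (141 to 208) CPM in the SCD-labelled library. It held its level over bins 1 and 2 (614 and 620 CPM, and 817 and 901 CPM), fell between bins 3 and 4 from 401 to 74.7 CPM and from 903 to 158 CPM, and ended at 51.3 and 105 CPM. By cluster, in the wild-type-labelled library, it was at 750 CPM in the Car1-led, 363 in the Hemgn-led, 96.7 in the Xpo7-led and 15.9 (10.5 to 23.1) in the Oas1e-led cluster. Only the last was close to the 9.80 CPM (6.70 to 13.8) of the B lymphocyte-like reference. In the SCD-labelled library the reference held 1.17 CPM (0.506 to 2.31), against 179 CPM (147 to 217) in the Xpo7-led cluster.

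For Aqp1, Epb41 and Epb42 the share of cells with a UMI, at matched depth, moved between cycling and late cells in the direction of the CPM. When each cell was thinned to 1000 UMIs, which left out 34 and 2 cycling and 95 and 3 late cells, Aqp1 had a UMI in 39.8% (38.0 to 41.6) of cycling and 7.25% (6.15 to 8.48) of late cells of the wild-type-labelled library, and in 49.8% and 14.6% in the SCD-labelled library. The B lymphocyte-like reference had 1.39% and 0.0544%. Epb41 had a UMI in 53.6% of cycling and 91.9% of late cells, and in 51.9% and 93.8%, against 13.1% and 9.14% in the reference. Epb42 went from 30.7% to 53.8% and from 33.5% to 57.3%, with 1.14% and 0.109% in the reference. Without thinning the shares for Epb42 were 80.3% and 82.4%, and 83.8% and 83.4%, so that the difference showed only at matched depth. Cells of the reference held a median of 2870 and 2970 UMIs, close to the late cells.

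The sequence before the start of transcription is shown for the pair with the most alike levels (Rhag and Ermap) and for a gene that rose and one that fell (Epb42 and Aqp1). RefSeq entries for GRCm38.p6 were at hand for 6 of the 8 genes, while Slc4a1 and Ank1 had no entry. Each run below is the 250 bases before the start, 5′ to 3′ on the gene's strand, at chr17:40810899-40811148 (plus) for Rhag, chr4:119189996-119190245 (minus) for Ermap, chr2:121036878-121037127 (minus) for Epb42 and chr6:55336049-55336298 (plus) for Aqp1. The RefSeq starts differ from those of the gene spans given above, so that the Epb42 window lies mostly inside its span, those of Rhag and Ermap reach into theirs, and that of Aqp1 ends before it. Capitals mark GATAA and CACCC or their reverse complements TTATC and GGGTG, letters of the kind that the erythroid factors GATA1 and KLF1 bind.
Rhag: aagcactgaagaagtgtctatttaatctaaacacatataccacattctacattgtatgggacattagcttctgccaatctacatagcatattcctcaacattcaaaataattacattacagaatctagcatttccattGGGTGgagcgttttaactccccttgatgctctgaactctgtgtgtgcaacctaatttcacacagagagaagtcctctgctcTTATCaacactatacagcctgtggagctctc
Ermap: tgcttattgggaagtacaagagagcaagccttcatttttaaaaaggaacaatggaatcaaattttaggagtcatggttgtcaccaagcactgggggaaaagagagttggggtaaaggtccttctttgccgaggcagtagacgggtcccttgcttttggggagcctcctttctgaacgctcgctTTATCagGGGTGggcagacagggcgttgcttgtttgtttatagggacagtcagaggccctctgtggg
Epb42: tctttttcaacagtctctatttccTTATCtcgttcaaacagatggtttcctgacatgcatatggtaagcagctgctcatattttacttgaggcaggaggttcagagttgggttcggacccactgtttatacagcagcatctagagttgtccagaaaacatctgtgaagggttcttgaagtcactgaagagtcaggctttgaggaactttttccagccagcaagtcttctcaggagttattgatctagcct
Aqp1: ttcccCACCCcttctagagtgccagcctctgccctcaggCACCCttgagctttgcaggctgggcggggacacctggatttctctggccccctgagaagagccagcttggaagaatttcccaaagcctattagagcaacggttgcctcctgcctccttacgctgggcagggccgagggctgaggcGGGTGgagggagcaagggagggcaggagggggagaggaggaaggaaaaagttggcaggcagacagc
Rhag and Ermap each held both motifs, Epb42 GATAA alone and Aqp1 CACCC alone, at 3 places. Sptb held CACCC once, and none of the 3 starts listed for Epb41 held either. Over all 32851 entries of the same length, 22.6% held GATAA and 52.0% CACCC on either strand. These are matches of letters in 1 window and no evidence of binding.

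The genes whose levels were most like a member's, by Pearson correlation of log2(CPM + 10) over 41 clusters of at least 50 cells in 1 library, among 9932 genes with at least 1000 UMIs, are a description. The points share libraries, free RNA and the contrast of erythroid with other cells. Tspo2 and Trim10 were among the genes most like Slc4a1 (r of 0.98 and 0.97), and Epb42 was most like Tspo2, Trim10 and Cdr2 (0.99 each). Epb41 was most like Ube2o, March2 and Cdr2 (0.99, 0.98 and 0.98), of which Ube2o belongs to the late list. Sptb was most like Add2, which encodes β-adducin of the same skeleton, and Rhd and Dmtn (0.98, 0.98 and 0.97). Ank1 came closest to Rhag, Rhd and Sox6, Rhag to Pdzk1ip1, Rhd and Sox6, and Ermap to Sox6, Rhag and Btnl10, with r of 0.98 to 0.99. Aqp1 was most like Fn3k, Nxpe2 and Gm867 (0.99, 0.98 and 0.98). Among the members themselves r ran from 0.57 (Epb41 with Aqp1) to 0.99 (Rhag with Ermap).

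Of 25 further membrane and skeleton genes, 24 and 19 had enough UMIs in the wild-type- and SCD-labelled libraries. In late cells 1 was past 2-fold higher and 7 lower in the wild-type-labelled library, and 3 higher and 7 lower in the SCD-labelled library, with medians of -0.45 and -0.36 on the log2 scale. Over all genes with enough UMIs 3.61% were higher and 22.0% lower in the wild-type-labelled library, and 8.53% and 41.4% in the SCD-labelled one, with medians of -0.24 and -0.72, so that the list lay near this background. Past 2-fold in both libraries, Tpm1, a tropomyosin of the short actin filaments of the skeleton, was higher in late cells (log2 ratio 1.48 and 2.09). Icam4 (-2.56 and -2.66), Xk (-2.18 and -1.99), Gypc, a glycophorin that protein 4.1 binds (-1.85 and -1.76), and Cd59a (-1.05 and -1.73) were lower. The remaining gene past 2-fold lower in both, Dmtn (-1.32 and -1.24), which encodes the actin-bundling protein dematin, is named outside the rule, with its values known.

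In RPM-like cells of the wild-type-labelled library, with their clusters pooled, the members stayed near the level of the B lymphocyte-like reference. Slc4a1 was at 173 CPM (167 to 179) in RPM-like cells and 186 CPM (172 to 202) in the reference, and Epb41 at 144 (138 to 149) and 150 (137 to 164) CPM. The other 6 genes lay between 10.5 and 18.7 CPM in RPM-like cells and between 9.80 and 18.1 CPM in the reference. None of 8 was past 2-fold higher, beside 10.0% of 9768 genes. The ratio of RPM-like cells to the reference ran from 0.930 (Slc4a1) to 1.44 (Ank1, 1.02 to 2.09), and the intervals of all but Ank1 included 1. The clusters differed in level and in depth. Slc4a1 was at 223 CPM (213 to 233) in the Marco-led and 125 CPM (118 to 133) in the Gm37697-led cluster. These were 1890 UMIs in 3695 cells and 1098 UMIs in 1094 cells. Median UMIs per cell were 1662 in the Marco-led and 7312.5 in the Gm37697-led cluster, and 2858 in the reference. The part of depth in these levels, and in those that follow, was not tested. In the Marco-led cluster Ank1 and Ermap were at 20.2 (17.3 to 23.5) and 24.6 (21.4 to 28.2) CPM. Reference levels were 11.3 (7.98 to 15.6) and 15.3 (11.4 to 20.2) CPM, and those of the Gm37697-led cluster 12.6 and 12.3 CPM. Intervals of the remaining members overlapped between the Marco-led cluster and the reference.

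In RPM-like cells of the SCD-labelled library only Slc4a1 and Epb41 reached 100 UMIs with the reference. Slc4a1 was at 20.6 CPM (17.5 to 24.2) against 16.0 CPM (13.1 to 19.3) in the reference. Epb41 was at 163 CPM (154 to 173) against 99.2 CPM (91.8 to 107), a log2 ratio of 0.72 (0.58 to 0.86). Neither was past 2-fold, beside 17.4% of 9563 genes. The other 6 genes had 10 to 22 UMIs each in 1641 RPM-like cells, or 1.33 to 2.93 CPM, and their ratios to the reference ran from 0.870 (Rhag) to 1.43 (Epb42, 0.506 to 4.35), so that a difference of 2-fold could not be seen at this depth.

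The ratio of Epb41 to Slc4a1 outside the erythroid cells differed between the libraries. In the SCD-labelled library there were 17.9 UMIs of Epb41 per 100 UMIs of Slc4a1 in cycling and 62.2 in late erythroid cells, but 791 in RPM-like cells and 621 in the reference. In the wild-type-labelled library, where Slc4a1 was 8.39-fold and 11.7-fold higher in RPM-like and reference cells, the figures were 22.3, 60.0, 83.0 and 80.4. The reference thus held more Epb41 per Slc4a1 than erythroid cells of the same library. How much of its Epb41 was free RNA was not tested. Among the other named classes, the B lymphocyte-like one includes the reference cluster itself. Across 5 such classes of the SCD-labelled library, Epb41 ran from 55.4 CPM (Ly6c-high monocyte-like) to 182 CPM (T lymphocyte-like). Slc4a1 ran from 10.7 (Ly6c-high monocyte-like) to 74.8 CPM (B lymphocyte-like, a cluster of which held erythroid RNA). In the wild-type-labelled library, with 6 such classes, Epb41 ran from 118 to 426 CPM and Slc4a1 from 114 to 550 CPM, the same classes, Ly6c-high monocyte-like and B lymphocyte-like, at the ends of both.

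**Figure D3:**
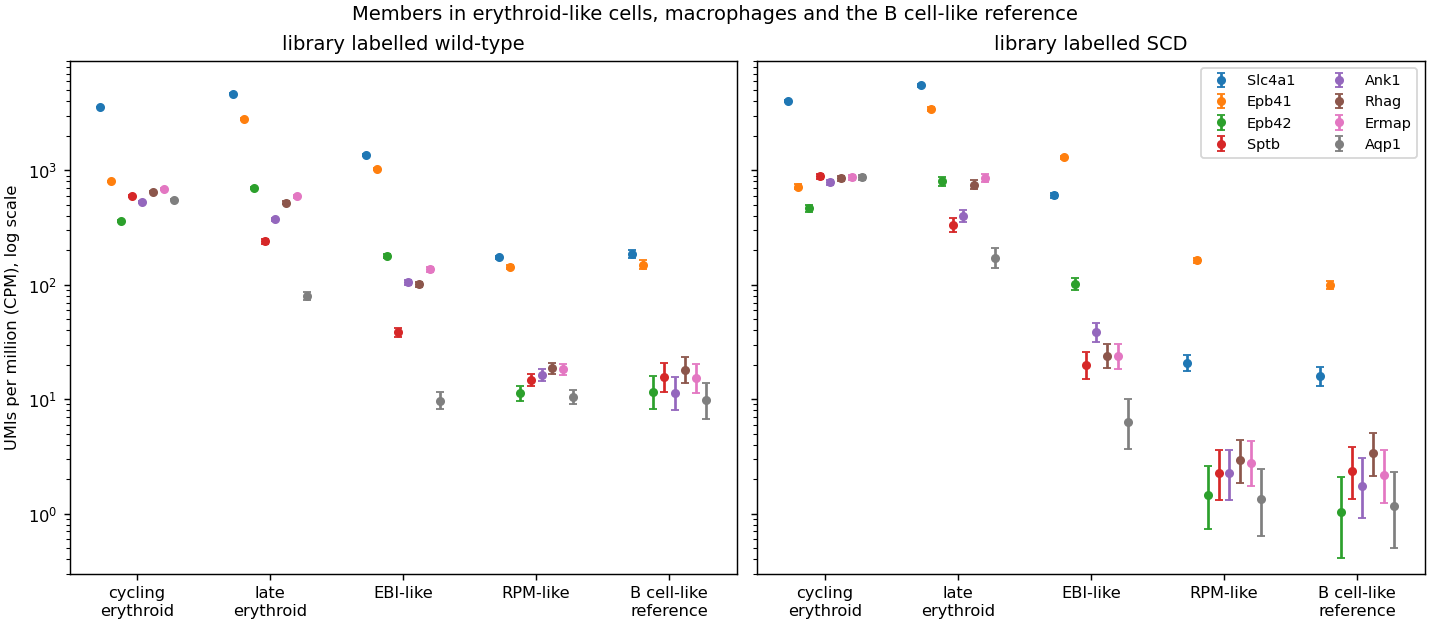
CPM of the 8 genes (log axis) with 95% Poisson intervals in cycling and late erythroid cells, EBI-like cells, RPM-like cells and the B lymphocyte-like reference, in the wild-type-labelled library (left) and the SCD-labelled library (right). RPM-like cells and the reference lie side by side in each library, and Epb41 stays at 163 and 99.2 CPM there in the SCD-labelled library while the other 7 lie at or under 20.6 CPM.

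EBI-like cells, which carry macrophage and erythroid markers together by definition, held more of the members than RPM-like cells. In the wild-type-labelled library 7 of 8 were past 2-fold above the reference, beside 9.62% of 9425 genes, with Slc4a1 at 1360 CPM (1341 to 1380, 7.30-fold), Epb41 at 1028 CPM (1011 to 1045, 6.86-fold) and Epb42 at 180 CPM (173 to 187, 15.5-fold). Aqp1 was the eighth, at 9.74 CPM (8.18 to 11.5) against 9.80 CPM in the reference. In the SCD-labelled library the 4 genes with at least 100 UMIs were all past 2-fold, beside 12.6% of 8582 genes, with Slc4a1 at 606 CPM (577 to 636), Epb41 at 1300 (1257 to 1343), Epb42 at 101 (89.8 to 114) and Ank1 at 38.5 (31.5 to 46.6). The minimum itself favours genes that are high in EBI-like cells here. The other 4 had 17 to 65 UMIs and lay between 6.29 and 24.1 CPM.

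The share of member RNA taken by a gene in EBI-like cells was nearer to its share in late than in cycling erythroid cells for all members but Slc4a1 in the wild-type-labelled library, and for all but Slc4a1 and Epb42 in the SCD-labelled one. Aqp1 made up 0.329% (0.277 to 0.389) of member UMIs in EBI-like cells of the wild-type-labelled library, 0.798% (0.737 to 0.862) in late and 7.16% (7.04 to 7.27) in cycling cells. In the SCD-labelled library the shares were 0.297%, 1.40% and 9.18%. Sptb made up 1.30% in EBI-like, 2.40% in late and 7.66% in cycling cells, and 0.943%, 2.71% and 9.34% in the SCD-labelled library. Epb41 made up 34.8%, 28.1% and 10.3%, and 61.3%, 28.0% and 7.61%. Ermap, with 10.0 and 12.7 UMIs per 100 of Slc4a1 in EBI-like and late cells of the wild-type-labelled library, had 3.91 and 15.6 in the SCD-labelled library, where different clusters make up the class (the Hbb-bs-led one, against those led by Hbq1a and Slfn14). These last 2 differed from each other in the wild-type-labelled library. The Hbq1a-led one held 166 UMIs of Ermap and 7088 of Slc4a1, and the Slfn14-led one 1762 and 12128. The B lymphocyte-like reference is a mixture too, with Aqp1, Sptb and Epb41 at 2.35%, 3.74% and 35.9% in the wild-type-labelled library. They made up 0.923%, 1.85% and 78.1% in the SCD-labelled library. There the EBI-like share was nearer to the reference than to late cells for all members but Epb42. In the wild-type-labelled library this held for Epb41, Rhag and Ermap only.

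**Figure D4:**
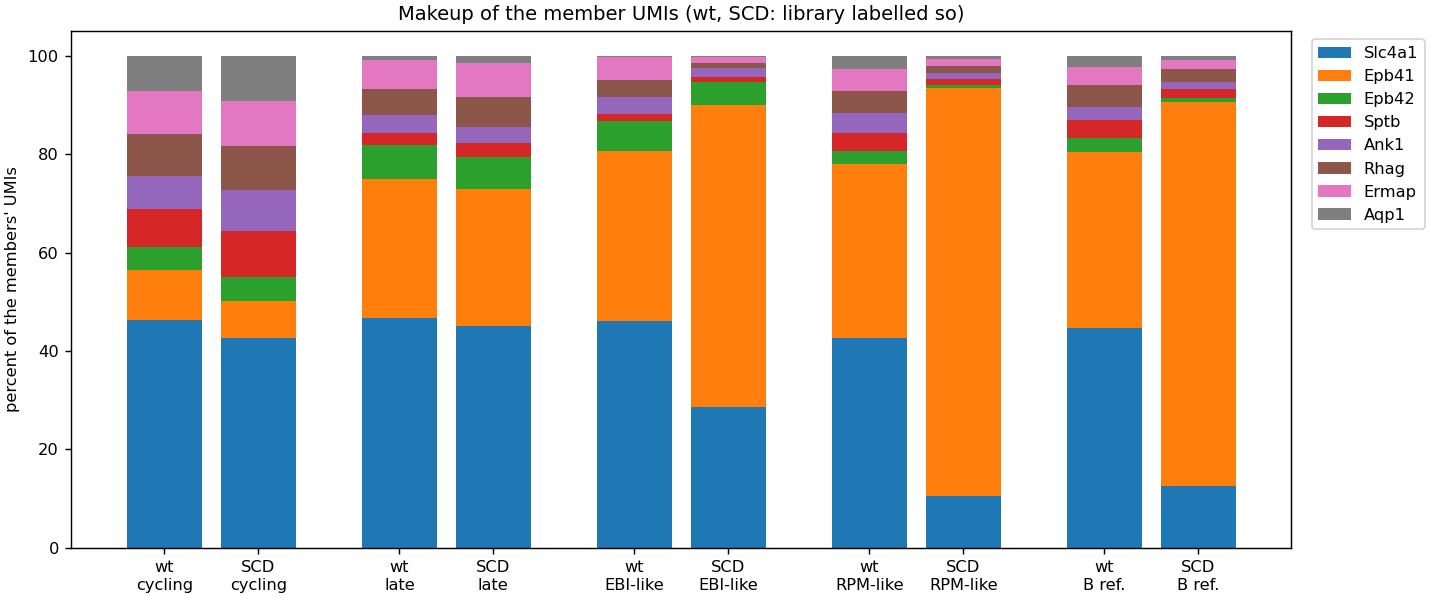
Each bar splits all UMIs of the 8 genes in a group of cells into the genes' percent, for the wild-type-labelled library (wt) and the SCD-labelled library. Aqp1 (grey) shrinks from 7.16% and 9.18% in cycling cells to 0.329% and 0.297% in EBI-like cells, and Epb41 (orange) takes 82.9% in RPM-like cells of the SCD-labelled library.

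Members also appeared in clusters without an erythroid name. The unnamed clusters led by Hbb-bs and Slfn14 and the B lymphocyte-like cluster led by Gm42870 held Slc4a1 at 1078, 1570 and 1619 CPM in the wild-type-labelled library and 373, 2129 and 648 CPM in the SCD-labelled library. In these 3 clusters 32.2%, 58.7% and 43.7% of cells were marked as doublets. Their part in these levels was not tested.

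Between the libraries, erythroid-like cells differed by less than 2-fold for all 8 genes. The log2 ratio of the SCD-labelled library to the wild-type-labelled library ran from 0.11 (Epb41) to 0.67 (Aqp1), with a median of 0.40 against -0.10 over 10395 genes, of which 1.78% were past 2-fold higher and 7.57% lower. Hemoglobin RNA, which counts in the same total, summed to 25712 CPM in the wild-type-labelled and 109549 CPM in the SCD-labelled erythroid-like cells. In cycling cells none was past 2-fold (median 0.38), beside 1.53% higher and 7.61% lower among 10004 genes. In late cells only Aqp1 was, at 172 against 79.6 CPM (log2 ratio 1.11, 0.81 to 1.41), beside 2.22% higher and 20.2% lower among 6902 genes. The late class was a different mix in each library. Xpo7-led and Oas1e-led cells numbered 1285 and 797 in the wild-type-labelled library, and 156 and 25 in the SCD-labelled one. In the Xpo7-led cluster alone Aqp1 was at 179 against 96.7 CPM, less than 2-fold apart. In the Oas1e-led cluster it was at 55.3 CPM, from 2 UMIs, against 15.9 CPM. The part of this mix was not tested.

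In RPM-like cells 7 of 8 genes were past 2-fold lower in the SCD-labelled library, beside 4.45% lower and 9.07% higher among 10020 genes, with log2 ratios from -3.07 (Slc4a1) to -2.68 (Rhag), and Epb41 was the exception (0.18, 0.08 to 0.28). All of the 7 but Slc4a1 had 10 to 22 UMIs in the SCD-labelled library and reached the minimum only through the wild-type-labelled one, so that the count is no support for a difference. After subtraction of the reference, or in cells thinned to 1000 UMIs, 2 members were past 2-fold, since fewer could be evaluated. In the B lymphocyte-like reference only 2 members had enough UMIs. Slc4a1 was lower there too (-3.54, -3.85 to -3.25), and Epb41 was lower (-0.59, -0.76 to -0.42), against its higher level in RPM-like cells. The wild-type-labelled library held 25.7% erythroid-like cells among its kept cells and the SCD-labelled library 3.39%. RPM-like cells of the wild-type-labelled library came mostly from the clusters led by Marco (3695 cells) and Gm37697 (1094 cells), and those of the SCD-labelled library from the cluster led by Rgs1 (1586 cells). The part of erythroid RNA outside cells in the difference between the libraries was not tested.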

How the data were processed

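Spleen cells bound by anti-F4/80 beads were profiled with 10x Genomics 3′ chemistry. The authors aligned the reads and deposited the UMI counts unnormalized, by gene and cell barcode. The submitters' processing notes name Cell Ranger 4.0.0 and GRCm38.p6, while the matrix headers name version 3.1.0. The wild-type- and SCD-labelled libraries held 145953464 and 73986356 UMIs in 24144 and 15442 barcodes.

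A cell was kept when it had between 500 and 5000 genes, less than 15% of UMIs from mitochondrial genes and less than 30% from ribosomal protein genes. Size factors came from scran 1.30.0 (R 4.3.3), and 2000 variable genes, without the 8 members, the 25 other membrane genes, sex-linked genes and hemoglobins, were reduced to 30 principal components, a graph of 15 neighbours and Leiden clusters at resolution 1 (scanpy 1.11.5, python-igraph 0.11.9, Python 3.11.15). Doublets were scored with Scrublet per library and left in. Since the threshold it set by itself marked too few cells in one library (0 cells of the wild-type-labelled library, 1778 of the SCD-labelled library), the highest-scoring 10% were taken (1942 cells).

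Clusters were named from marker lists. For RPM-like clusters the median ratio of macrophage markers to the B lymphocyte-like reference had to reach 2, with at least 3 of them in at least 10% of cells. For EBI-like clusters the erythroid markers had to do so as well. Any other cluster, erythroid-like ones included, took the list with the largest share of markers at least 2-fold above the remaining cells. At least 3 such markers in at least 10% of cells were needed. A cluster was left unnamed when its 10 leading genes held more markers of another list. An erythroid-like cluster was called late when its late list was at least 5 times its cell cycle list. A first clustering had been looked at when these limits were set. The members and all lists were chosen with earlier results of these data known. The genes named were the members, the other membrane genes past 2-fold alike in both libraries (at most 4 each way), the globins and the 3 most alike genes per member. Genes that lead clusters fall outside this rule and were picked with their values known, and some genes that the rule names are not reported here.

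Levels are summed UMIs scaled to 1000000 per group and library (CPM). A gene needed at least 100 UMIs over both groups for a ratio to be counted, a count of 0 was taken to allow 3, and groups under 20 cells gave no value. Cells with under 5 list UMIs were left out of the bins (1 per library). Gene positions are from GENCODE M21 (GRCm38). The ratio calculation was checked on simulated counts. Alternatives covered cell filters, doublets, clustering, scaling, the CPM total, the weight and depth of cells and free RNA. No sample was left out.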

Additional observations from a re-analysis of the deposited data

Results flagged for a closer look

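Slc4a1 stood at a log2 ratio of -0.11 (-0.23 to 0.02) in RPM-like cells against the B lymphocyte-like reference in the wild-type-labelled library. In the SCD-labelled library it stood at 0.37, a gap of 0.48. Epb41 showed the same kind of gap, with -0.06 (-0.20 to 0.08) and 0.72, or 0.78 apart. Both intervals of the wild-type-labelled library included 0, so a change of sign is not shown for either gene. Epb41 was also lower in the SCD-labelled library than in the wild-type-labelled library among cycling erythroid cells (log2 ratio -0.15) and higher among late ones (0.29), which are 0.44 apart. With 1 library per condition none of these 3 differences was tested.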

How the results depend on the processing

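No paired analysis was possible because each condition has 1 library. In late cells of the wild-type-labelled library, 2 members instead of 1 were past 2-fold higher (Epb42 joined Epb41) under 5% mitochondrial UMIs, without marked doublets, with total-count scaling, as a mean over cells and in cells thinned to 1000 UMIs, and 1 instead of 2 was lower (Sptb at -0.80 and -0.64) without doublets and with total-count scaling. Thinned, 2 were higher in the SCD-labelled library. Above the reference in RPM-like cells of the wild-type-labelled library were 2 members (Ank1 1.21, Ermap 1.22) at Leiden resolution 2 and 1 as a mean over cells (Ank1), instead of 0, and 1 (Epb41) in the SCD-labelled library when thinned. In EBI-like cells of the SCD-labelled library the count of 4 became 7 with all variable genes in the clustering and 2 when thinned. Between the libraries in RPM-like cells 2 instead of 7 were past 2-fold after subtraction of the reference and 2 when thinned, since fewer members then had enough UMIs. In late cells alone, 1 instead of 0 was past 2-fold between the libraries. Of members whose share of cells with a UMI was larger in cycling than in late cells of the wild-type-labelled library with intervals that did not overlap, 2 instead of 4 were left at 500 UMIs. The alternatives for EBI-like cells, for counts of lower members and for late cells alone were chosen after seeing the data. Apart from the counts whose makeup is stated, the cause was not tested. Shares over all genes were not computed under the alternatives, so these counts have no background beside them. Under 5% mitochondrial UMIs RPM-like and EBI-like cells were too few for a value. With all variable genes the SCD-labelled library gave no value for late against cycling cells. Over 585 comparisons of a member's value with an alternative, 244 fell outside the counting interval of the main value. No value past 2-fold changed sign. Values within 2-fold could, such as the late to cycling log2 ratio of Rhag in the wild-type-labelled library (-0.67 to 0.23). In RPM-like cells of the SCD-labelled library 6 members had 10 to 22 UMIs each, which limits their ratios.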
